A study of Mus musculus with 6 samples.

Results

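Chromatin accessibility around 5 genes for transcription factors of the epithelial-mesenchymal transition (EMT) was followed in NMuMG cells, an established epithelial line from normal mouse mammary gland. The members were all accessible regions that overlapped fixed windows around Snai1, Snai2, Zeb1, Zeb2 and Twist1 in the mouse build mm9. They numbered 65 of the 106654 regions in the 3 deposited peak lists. The DMSO list gave 23 of 42310, the list after 6 h of BRM014 gave 17 of 25922, and the list after 30 h gave 25 of 38422. BRM014 blocks the ATPases that drive SWI/SNF remodellers, which move nucleosomes, and DMSO is its vehicle. All cells were wild type by their labels and grew in medium with serum and insulin. The assay was ATAC-seq, where Tn5 transposase cuts and tags open DNA for sequencing. Each group had 2 biological replicates, but its list was made from both together, so there was no replicate spread to compare with and no test between treatments was made. The DMSO list is named for 30 h, and no vehicle list of 6 h was analysed here. The extraction protocol mentions TGFβ, but no sample label carries it.

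These factors are the core repressors and inducers of EMT, the program by which epithelial cells lose their junctions and become motile. Snai1 (Snail) and Snai2 (Slug) are zinc-finger repressors that bind E-box words in the promoters of epithelial genes such as Cdh1, the gene of E-cadherin. Zeb1 and Zeb2 carry clusters of zinc fingers at both ends of the protein, bind similar words, and stand in mutual repression with the miR-200 family. Twist1 is a basic helix-loop-helix factor that also acts in mesoderm and neural crest. NMuMG cells are a common model of TGFβ-induced EMT, in which several of these genes are switched on.

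The upstream sequence of 3 of the genes is shown because E-box words in such stretches are what these factors read, and because the windows of the 3 genes held many regions, several regions and none. The sequences are the 250 bases before the RefSeq start in the build GRCm38.p6, whose coordinates cannot be set against the mm9 positions of the regions, so whether an accessible region covers them was not analysed here. Capitals mark the E-box word CACCTG, searched on both strands as CACCTG or CAGGTG. For Zeb2 the start farthest upstream of 4 is shown.
Snai1, chr2:167537945-167538194, plus strand: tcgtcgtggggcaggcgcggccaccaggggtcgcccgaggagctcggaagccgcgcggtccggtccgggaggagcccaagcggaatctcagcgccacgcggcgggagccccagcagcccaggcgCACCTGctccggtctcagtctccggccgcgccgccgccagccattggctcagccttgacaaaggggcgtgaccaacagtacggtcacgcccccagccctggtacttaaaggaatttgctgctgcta
Zeb2, chr2:45117443-45117692, minus strand: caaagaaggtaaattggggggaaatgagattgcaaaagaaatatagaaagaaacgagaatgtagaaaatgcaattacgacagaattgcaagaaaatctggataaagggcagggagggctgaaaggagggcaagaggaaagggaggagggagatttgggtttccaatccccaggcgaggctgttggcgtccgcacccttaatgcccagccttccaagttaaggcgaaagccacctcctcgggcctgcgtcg
Twist1, chr12:33957421-33957670, plus strand: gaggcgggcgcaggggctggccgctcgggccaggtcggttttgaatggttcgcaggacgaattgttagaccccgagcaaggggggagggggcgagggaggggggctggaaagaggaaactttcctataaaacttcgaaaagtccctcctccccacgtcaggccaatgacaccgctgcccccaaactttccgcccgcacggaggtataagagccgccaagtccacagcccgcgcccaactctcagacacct
The word occurred once upstream of Snai1, with its first base 126 bases before the start, and was not found in the stretches of Zeb2 and Twist1. Among all 32851 RefSeq starts in the table, 17.2% held it in the same length. The Snai1 stretch had 27 CpG dinucleotides, the Twist1 stretch 18 and the Zeb2 stretch 9, against a median of 6.00 over all starts.

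How many regions a window held differed widely between the genes. The Snai1 window (chromosome 2, 167310000 to 167420000) held 10 DMSO regions, where whole tiles of the same length over the chromosomes held 1.81 on average. In the Zeb2 window (chromosome 2, 44780000 to 45030000) there were 8, against 4.12 in a whole tile of its length. In the Zeb1 window (chromosome 18, 5540000 to 5830000) there were 4, against 4.78 in a whole tile of its length. Per 100 kb, Snai1, Zeb2 and Zeb1 held 9.09, 3.20 and 1.38 DMSO regions. The Snai2 window (chromosome 16, 14650000 to 14760000) held 1. The Twist1 window (chromosome 12, 34590000 to 34700000) held none in any of the 3 lists. Of the tiles of 110 kb, the length of the Snai1, Snai2 and Twist1 windows, 47.5% held no DMSO region and 14.2% held 1, so a window without regions was common in this list. The DMSO region nearest to the Twist1 window lay 25735 bp beyond its end. A region missing from a list was not called there, which is not the same as closed chromatin.

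No mm9 gene annotation was used, so the regions are named by window and by order along the chromosome, Snai1-a to Snai1-j for example. Whether they lie in a promoter, exon or intron is not stated. The windows also reach toward other genes. In RefSeq (GRCm38) the nearest protein-coding neighbours were Rnf114 and Ube2v1 for Snai1, Zfp438 and Arhgap12 for Zeb1, Gtdc1 and Acvr2a for Zeb2, and Ferd3l and Hdac9 for Twist1. Epithelial marker genes could not be located for the same reason, so the cell type label was not tested.

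**Figure D1:**
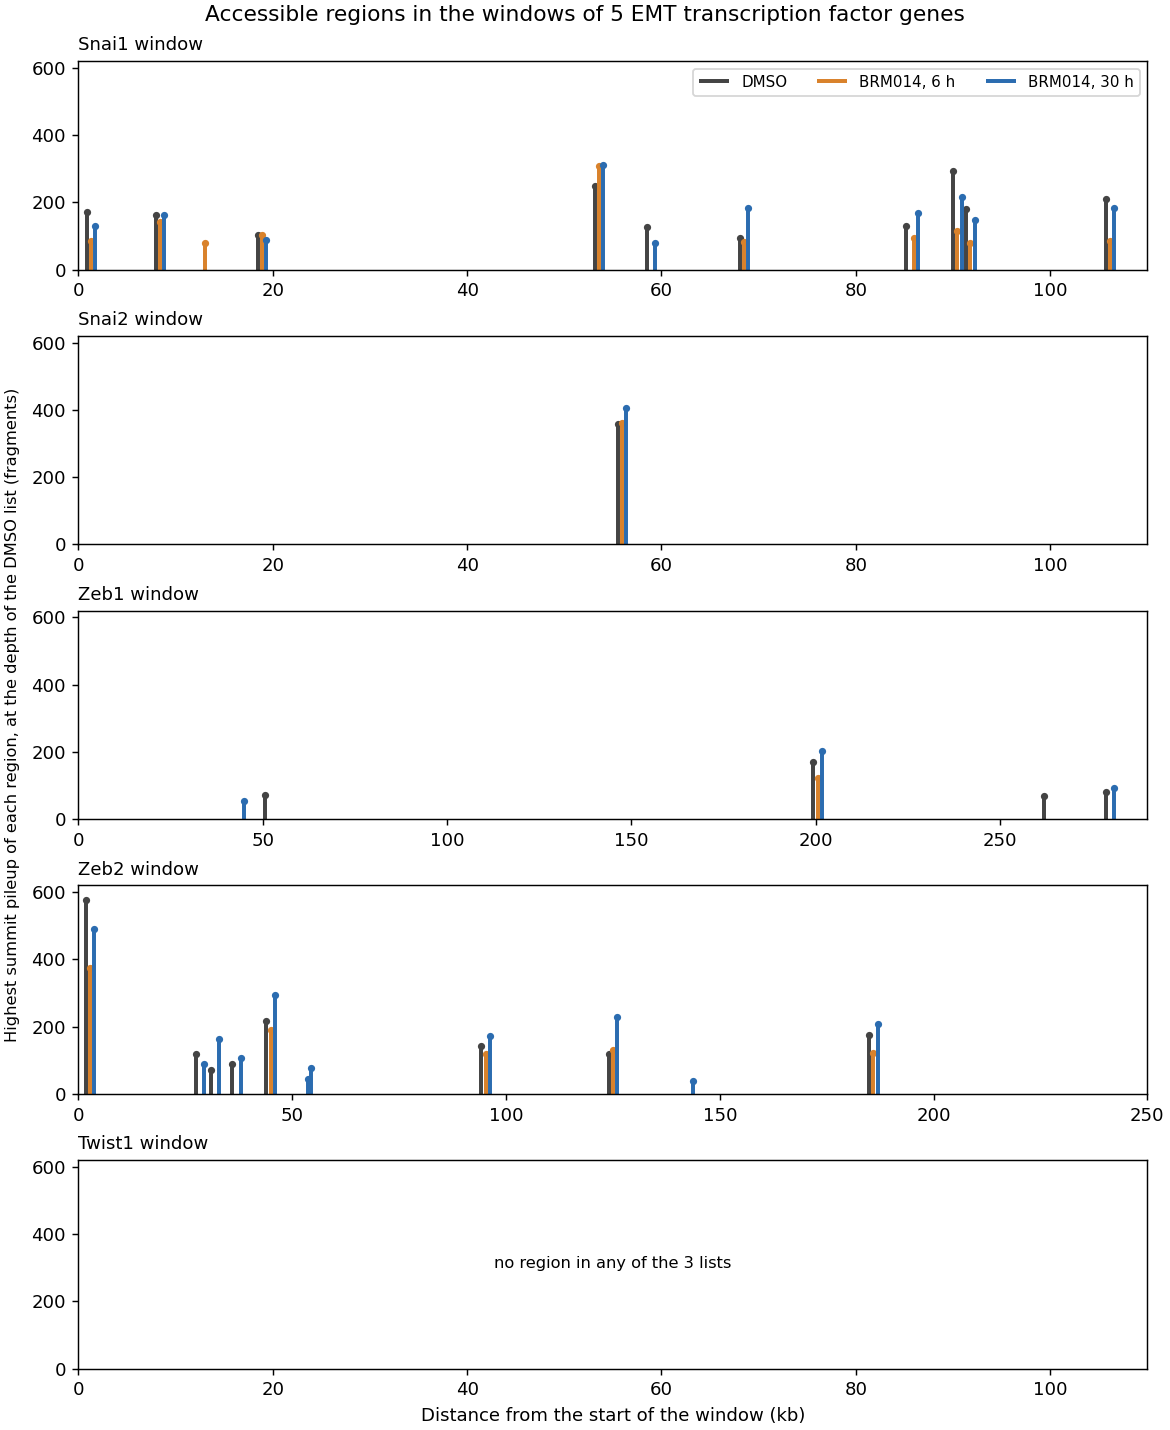
Each stem is 1 accessible region in the windows of the 5 genes, placed at its distance in kb from the window's start, with its highest summit pileup (fragments, scaled to the depth of the DMSO list) as the height. Stems of the 3 lists are set slightly apart for display. Snai1 holds the most regions per length, Snai2 a single one in every list, and Twist1 none.

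By -log10 q and fold enrichment the members were close to the list as a whole. Of the 23 DMSO regions 21 stood at the highest score of 1000, 91.3% against 70.5% of all DMSO regions. At least 2 summits were found in 16, 69.6% against 51.0% of all. These shares were not tested. Their median width was 884 bp, with a range of 371 to 1628 bp, against 677 bp for all, and their median fold enrichment was 13.1 against 13.0. The median -log10 q was 99.4, from 35.9 to 465, against 91.7 for all, and 13 of the 23 lay above the median of the list. Fold enrichment and q are those of the authors' peak caller and serve here only to describe and rank regions within a list.

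Among the 23 DMSO regions 7 were missing at 6 h, 30.4% (95% Wilson interval 15.6 to 50.9%), against 43.6% of all DMSO regions. At 30 h 2 were missing, 8.70% (2.42 to 26.8%), against 26.1%. Both of these had also been missing at 6 h, so 2 were missing at both times (23.7% of all), 5 at 6 h only (21.7%, against 19.9% of all), none at 30 h only (2.33% of all) and 16 at neither (69.6%, against 54.1%). Over all DMSO regions, those with a low -log10 q were missing more often. If each member had been missing as often as all DMSO regions in its decile of -log10 q, 8.96 would have been missing at 6 h and 4.71 at 30 h. Those counts come to 39.0% and 20.5% of the members and lie inside the intervals, as do both shares over all regions. At 30 h the 26.1% of all regions lay just under the upper end of 26.8%. With 23 regions the intervals are wide, so they cannot decide whether the members differed from other regions.

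The missing regions were spread over 3 of the windows, and no difference between genes was tested. Snai1 kept 9 of 10 at 6 h and 10 of 10 at 30 h, and Snai2 kept its only region at both times. Zeb2 kept 5 of 8 at 6 h and 8 of 8 at 30 h. Zeb1 kept 1 of 4 at 6 h, with 75.0% missing (30.1 to 95.4%), and 2 of 4 at 30 h, with an interval of 15.0 to 85.0% missing. Both members missing at 30 h were thus at Zeb1. Without that window, left out after the data were seen, 0 of 19 were missing at 30 h, a share of up to 16.8%. The share was 26.1% over all DMSO regions and 17.8% as reckoned from the deciles of -log10 q. The window left out held both missing regions, so the count of 0 follows from that choice. Its interval therefore cannot decide whether the other windows differed from these shares, and no difference was tested. At the shares of their deciles of -log10 q, Zeb1 would have had 2.27 of 4 missing at 6 h, where 3 were found, and 1.33 at 30 h, where 2 were found. For Zeb2 the same reckoning gave 2.97 of 8 at 6 h, where 3 were found, and 1.56 at 30 h, where none was. For Snai1 it gave 3.67 of 10 at 6 h, where 1 was found, and 1.81 at 30 h, where none was. The shares so reckoned lie inside the intervals of these 3 genes at both times. The intervals of Zeb1 and Snai1 overlap at both times, but overlap does not test a difference. With 4 to 10 regions per gene such intervals can exclude little.

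**Figure D2:**
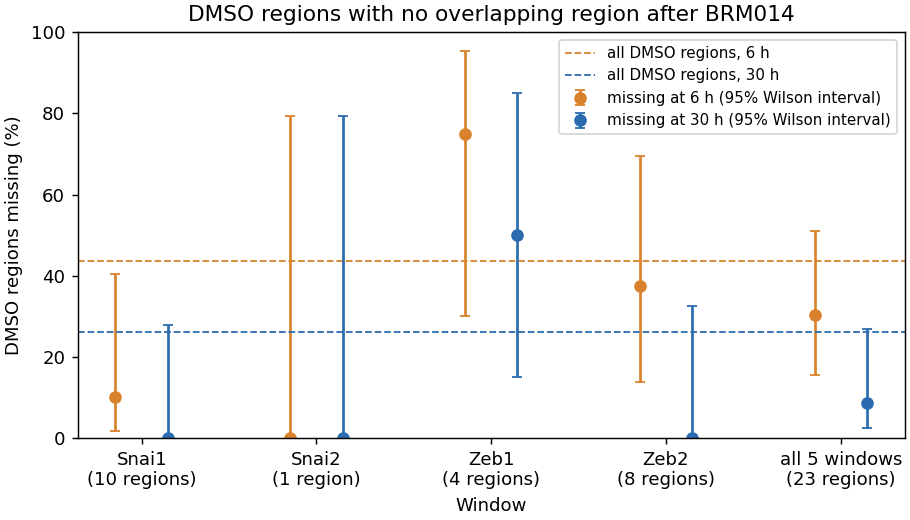
Share of DMSO regions (%) with no overlapping region after 6 h (orange) and 30 h (blue) of BRM014, by window, with 95% Wilson intervals, and the shares over all DMSO regions as dashed lines at 43.6% and 26.1%. Zeb1 has the highest share at both times, and the intervals are wide because a window holds at most 10 regions.

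For regions called in both lists the height of the summit was compared through the pileup, the number of fragments over the summit base, recovered from the authors' fold enrichment and -log10 p. A pileup expected after treatment was taken as the DMSO pileup times the relative depth of the list, 63.0% at 6 h and 80.7% at 30 h, and the value found was divided by it. Intervals on this ratio are exact 95% intervals and cover counting error only. Over all kept DMSO regions the median ratio was 0.855 at 6 h and 0.985 at 30 h, a shift of -0.23 and -0.02 on the log2 scale. Among the 16 members kept at 6 h the median was 0.786 (range 0.390 to 1.23), and 3 of them were above 1, against 35.1% of all kept regions. When the ratio was taken relative to 0.855 instead, 7 were above and 9 below. At 30 h the median of the 21 kept members was 1.15 (range 0.619 to 2.27), with 13 above 1, 61.9% against 47.9% of all, and the same 13 and 8 counted on either scale.

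Snai1, the first of these genes to be switched on in many models of EMT, had the most DMSO regions of the 5. The strongest by -log10 q was Snai1-d (chromosome 2, 167363081 to 167363978, 898 bp), with 20.9-fold enrichment and a -log10 q of 235. Its summit pileup was 250 in DMSO, 194 at 6 h and 251 at 30 h, where 157 and 202 were expected. It was therefore higher than expected at both times, 1.23 times (1.02 to 1.49) at 6 h and 1.24 times (1.04 to 1.49) at 30 h. It was the only member whose interval lay above 1 at 6 h.

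On the far side of the window 3 regions went the other way at 6 h. Snai1-h (167400245 to 167400761, -log10 q 191) had a pileup of 293 in DMSO, 72 at 6 h against 185 expected, and 173 at 30 h against 237. Snai1-i (167401587 to 167401977) had 180, 50 and 119. Snai1-j (167415842 to 167416517, -log10 q 159) had 210, 53 and 148. Their ratios at 6 h were 0.390 (0.297 to 0.506), 0.441 (0.316 to 0.606) and 0.401 (0.291 to 0.544), the lowest of the 16 kept members. At 30 h they were 0.731, 0.819 and 0.873, and only that of Snai1-h kept an interval below 1 (0.603 to 0.886). Snai1-a (167311014 to 167312135), at the other edge, had 170 fragments in DMSO, 53 at 6 h and 104 at 30 h, ratios of 0.495 (0.357 to 0.677) and 0.758 (0.588 to 0.973).

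Snai1-e (167368480 to 167369769, 1290 bp, 4 summits) was the one Snai1 region missing at 6 h. Its DMSO pileup of 126 gave an expected 79.4 at 6 h, and the nearest 6 h region lay 4618 bp away. In its decile of -log10 q 49.7% of DMSO regions were missing at 6 h. At 30 h it was called again at 63 fragments, 0.619 times that expected (0.450 to 0.845), the lowest ratio of the 21 members kept at that time. Its height at 6 h is not known, since a region that was not called has no pileup.

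Snai1-f (167378292 to 167379073) differed most between 6 h and 30 h. It had 94 fragments in DMSO, 51 at 6 h and 148 at 30 h, which was 0.861 times that expected (0.600 to 1.22) and then 1.95 times (1.50 to 2.55). In Snai1-g (167395115 to 167396108) the leading summit changed. In DMSO the summit at 167395598 had 130 fragments and the one at 167395979 had 105. At 6 h the matching summits had 39 and 59 fragments, and at 30 h 103 and 136, so the second led in both treated lists and the main summit lay 383 and 382 bp from its DMSO place. With the highest summit of each list the ratio at 30 h was 1.30 (1.01 to 1.66), and with the summit nearest to the DMSO one it was 0.982 (0.750 to 1.28). At 6 h these ratios were 0.720 (0.520 to 0.987) and 0.476 (0.324 to 0.686). Of the remaining regions, Snai1-b had 161, 90 and 131 fragments and Snai1-c, with 7 summits in 1628 bp, had 104, 65 and 71. Both kept intervals that held 1 at both times.

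Snai2, the paralogue of Snai1 that is often found in basal mammary cells, had a single strong region. Snai2-a (chromosome 16, 14705456 to 14706455) had 18.4-fold enrichment and a -log10 q of 312, higher than 88.9% of the DMSO list. Its pileup was 357 in DMSO, 228 at 6 h and 328 at 30 h, against 225 and 288 expected. The ratios of 1.01 (0.855 to 1.20) and 1.14 (0.977 to 1.33) held 1 at both times. Its start was the same base in the 3 lists, but its end was drawn in by 307 bp at 6 h and 303 bp at 30 h. The third DMSO summit, at 14706370 with 64 fragments against 357 at the main one, lay in the part no longer called. The nearest region outside the window was 80918 bp beyond its end in DMSO.

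Zeb1, whose product represses epithelial genes together with Zeb2, had 4 DMSO regions, and the highest share of them was missing. Zeb1-a (chromosome 18, 5591547 to 5593001) was broad, 1455 bp with 6 summits, and weak, with 7.05-fold enrichment and a -log10 q of 35.9. It was missing at both times, where 44.7 and 57.3 fragments were expected from 71 in DMSO. In its decile 80.9% of DMSO regions were missing at 6 h and 54.5% at 30 h. Zeb1-c (5802749 to 5803414) was missing at both times too, with a fold enrichment of 16.3, a -log10 q of 63.4 and 70 fragments in DMSO. The shares missing in its decile were 60.9% and 34.6%.

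Zeb1-d (5819677 to 5820520), in the same decile, was missing at 6 h and had 74 fragments at 30 h against 64.6 expected, 1.15 times (0.824 to 1.59). Zeb1-b (5739957 to 5740840), the strongest of the gene with 18.7-fold enrichment and a -log10 q of 153, was kept throughout. Its pileup was 169 in DMSO, 78 at 6 h and 163 at 30 h, ratios of 0.733 (0.553 to 0.964) and 1.19 (0.958 to 1.49). At Zeb1 the 2 regions missing at both times were those with the lowest pileups in DMSO, 71 and 70, although Zeb1-d with 80 was close to them. By the other measures the order differed. Zeb1-d, with a -log10 q of 60.9 and 12.5-fold enrichment, ranked below Zeb1-c, with 63.4 and 16.3-fold.

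At Zeb2, which acts beside Zeb1 on much the same promoters, 6 of the 8 regions had a ratio above 1 at 30 h. That was 75.0%, against 47.9% of all kept DMSO regions. Both kept Zeb1 regions and the Snai2 region also had ratios above 1. The intervals of Zeb2-d, Zeb2-f and Zeb2-h held 1, as did those of the Zeb1 and Snai2 regions. The strongest Zeb2 region, Zeb2-a (chromosome 2, 44782200 to 44783318), lies at the edge of the window, with a -log10 q of 465. It had 577 fragments in DMSO, 236 at 6 h and 396 at 30 h, below expectation at both times with ratios of 0.649 (0.556 to 0.757) and 0.850 (0.746 to 0.968). Zeb2-e (44824104 to 44825218, -log10 q 207) had 216, 120 and 237 fragments, ratios of 0.882 (0.700 to 1.11) and 1.36 (1.13 to 1.64). Zeb2-g (44904741 to 44905221) had 118, 82 and 184, ratios of 1.10 (0.822 to 1.47) and 1.93 (1.52 to 2.46). Zeb2-f had 142, 75 and 138 fragments, and Zeb2-h (44964719 to 44966066, 5 summits) had 174, 76 and 167. For both of these the 30 h interval held 1, and at 6 h Zeb2-h lay below it, at 0.693 (0.522 to 0.913).

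A run of 3 neighbours at Zeb2 were missing at 6 h and called at 30 h. Zeb2-b (44808275 to 44808884) had 118 fragments in DMSO and 72 at 30 h, 0.756 times that expected (0.556 to 1.02). Zeb2-c (44811751 to 44812121), a weak DMSO region with 7.50-fold enrichment and a -log10 q of 38.3, had 72 fragments and then 132 at 30 h, 2.27 times that expected (1.69 to 3.07), the highest ratio of any member. Its width went from 371 to 503 bp. Zeb2-d (44816612 to 44817182) had 90 fragments in DMSO and 87 at 30 h, 1.20 times that expected (0.882 to 1.63). The nearest 6 h regions lay 7485 to 15783 bp from these places. In their deciles 38.6%, 80.9% and 49.7% of DMSO regions were missing at 6 h. The 30 h intervals of 3 Zeb2 regions, Zeb2-c, Zeb2-e and Zeb2-g, lay above 1.

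**Figure D3:**
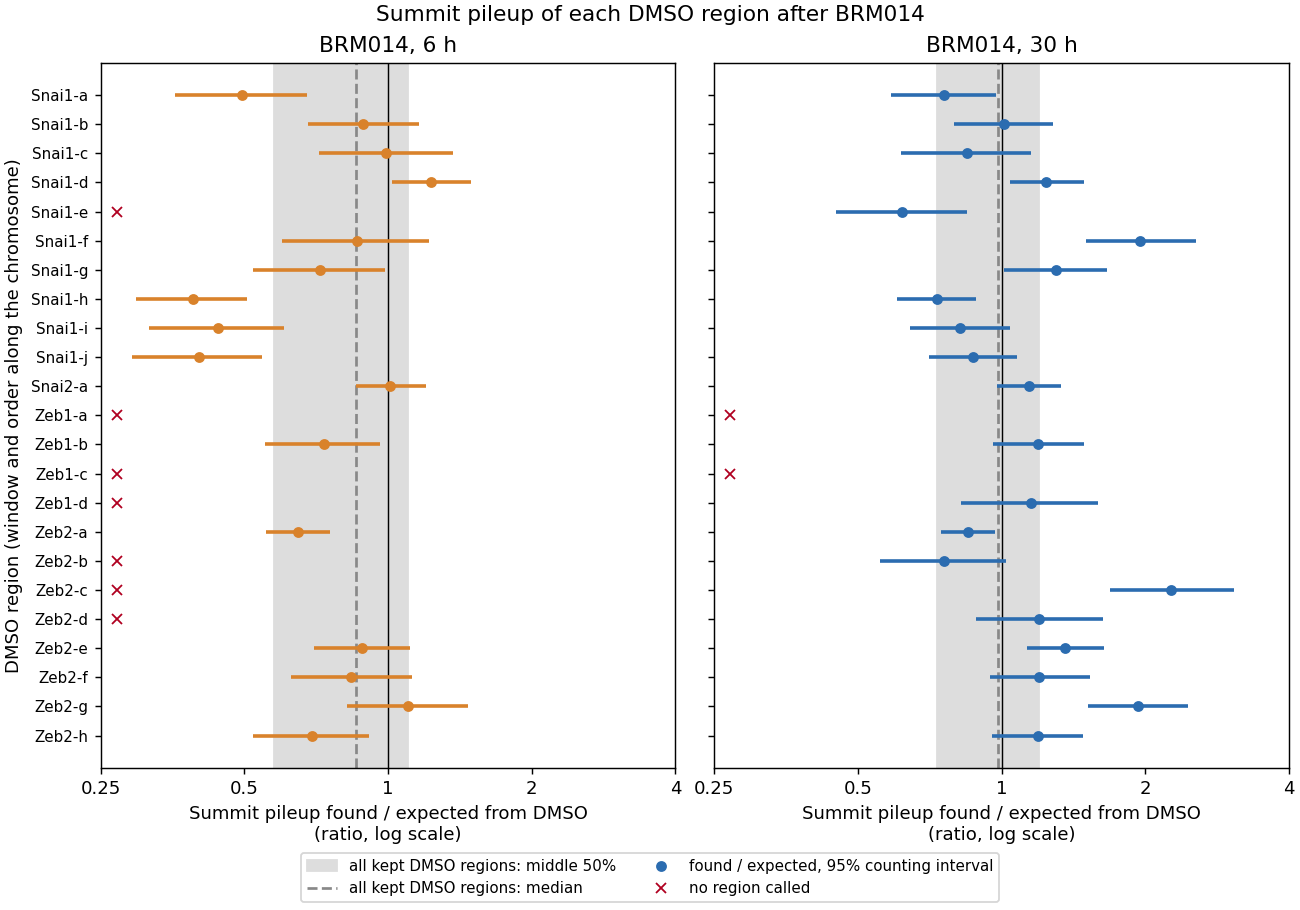
Summit pileup found after BRM014 divided by that expected from DMSO (log axis) for each of the 23 DMSO regions, at 6 h on the left and 30 h on the right, with exact 95% counting intervals, and crosses for regions not called. The grey band and dashed line are the middle 50% and the median of all kept DMSO regions. Snai1-h, Snai1-i and Snai1-j lie lowest at 6 h, and Snai1-f, Zeb2-c and Zeb2-g highest at 30 h.

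Counting intervals alone put 1 kept member above 1 and 8 below at 6 h, with 7 holding 1. At 30 h they put 6 above and 4 below, with 11 holding 1. Snai1-g was above only by the summit chosen, and with the summit nearest to the DMSO one 5 were above and 12 held 1, while the 6 h counts did not change. Relative to the median of all kept regions the 6 h counts became 2 above and 5 below, and the 30 h counts did not change. At 30 h 3 of 21 members, Snai1-f, Zeb2-c and Zeb2-g, lay in the highest decile of all kept regions, 14.3% against the 10% that a decile holds.

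The treated lists were also set against each other. For the 16 members called in all 3 lists, the 30 h pileup per depth was higher than that at 6 h in 15, 93.8% against 70.3% of the 22871 DMSO regions called at both times. The exception was Snai1-c, at 0.852 times (0.600 to 1.21). The median of the 16 was 1.59, against 1.18 over all, and 12 of the 16 lay above 1.18. In 12 the interval lay above 1, and in 9 above 1.18. The highest ratios were those of Snai1-f at 2.26 (1.64 to 3.18) and Snai1-j at 2.18 (1.58 to 3.04), while Snai1-d stood at 1.01 (0.834 to 1.22) and Snai2-a at 1.12 (0.945 to 1.34). The region strongest by q at Snai1 and the only region at Snai2 were thus close to level between the times. Those strongest by q at Zeb1 and Zeb2 were higher at 30 h. Zeb1-b stood at 1.63 (1.24 to 2.16) and Zeb2-a at 1.31 (1.11 to 1.55).

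Most kept regions were narrower after treatment, and most main summits stayed near their DMSO place. Widths were taken as called, with no scaling for depth, so they cannot be compared with the heights. How much of the narrowing goes with depth was not tested. At 6 h 13 of 16 kept members were narrower than in DMSO, 81.2% against 74.9% of all kept regions, and at 30 h 15 of 21, 71.4% against 66.3%. The median width ratio was 0.854 at 6 h and 0.928 at 30 h, against 0.916 and 0.954 over all. The largest loss was at Zeb2-e, which went from 1115 bp to 686 bp and 662 bp. Its start lay 564 bp further in at both times, and the weak DMSO summits at 44824293 and 44824459, with 21 and 26 fragments, fell in the part not called. Zeb2-a became wider, from 1119 bp to 1258 and 1309 bp, while its pileup was below expectation. The main summit stayed within 30 bp of its DMSO place in 14 of 16 members at 6 h and 19 of 21 at 30 h, against 80.5% and 84.8% of all kept regions. Snai1-g alone moved by more than 100 bp.

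**Figure D4:**
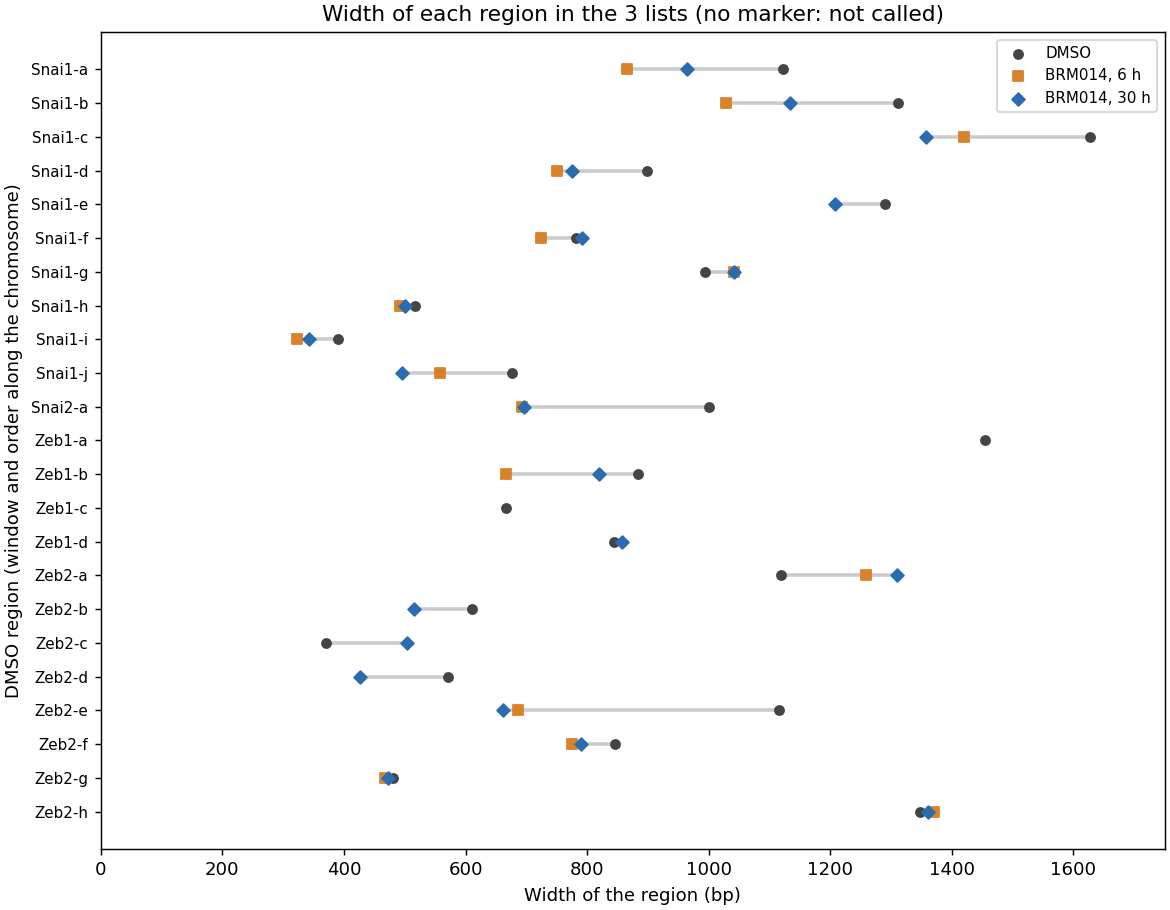
Width in bp of each of the 23 DMSO regions in the DMSO list (circles), at 6 h (squares) and at 30 h (diamonds) of BRM014, with no marker where a region was not called. Most treated markers lie to the left of the circle. Those of Snai1-g, Zeb2-a and Zeb2-h lie to its right, as do the 30 h markers of Snai1-f, Zeb1-d and Zeb2-c.

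Few regions in the windows were called only after treatment. At 6 h 1 of 17 was new, 5.88% (1.05 to 27.0%), against 7.42% of the 6 h list, and at 30 h 4 of 25, 16.0% (6.40 to 34.7%), against 17.9% of the 30 h list. The new 6 h region lay at Snai1 from 167322882 to 167323108, with 49 fragments and a -log10 q of 25.4, and was not called at 30 h. Of the new 30 h regions 3 were at Zeb2. The strongest of them, from 44833139 to 44833438, had 62 fragments and a -log10 q of 45.3. A second, from 44832666 to 44833044 with 36 fragments, lay beside it, and the third, from 44922630 to 44923063, had 32. At Zeb1 the new region from 5583558 to 5584009 had 44 fragments and lay 7537 bp from Zeb1-a, the nearest DMSO region. By -log10 q the new regions ranked low, above 11.6% of the 6 h list and above 2.48 to 32.6% of the 30 h list.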

How the data were processed

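ATAC-seq of NMuMG cells was deposited as 3 peak lists. The authors made each from the 2 replicates of its group, and it counts here as 1 pooled sample. The submitters' processing notes name MACS2 2.1.2 and mm9. The aligner, read filters, transposase shift and caller options are not given in the sources used here. Per narrowPeak order, the lists give the authors' score, their ratio (fold enrichment), their deposited -log10 p and -log10 q, and a deposited summit offset; none was scaled between lists.

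Overlapping entries were merged into regions with the highest value of their entries (pandas 2.3.3). A region counted as shared at an overlap of at least 1 bp. Wilson and exact 95% intervals came from scipy 1.17.1; they cover counting error and nothing else. Each entry was solved for a whole-number pileup and its background, assuming the caller's default fold enrichment (pileup plus 1 over background plus 1) and Poisson p. They matched the deposited -log10 p within 0.001 for 100% of entries. Relative depth was the ratio of the lowest backgrounds, 3.37 in DMSO, 2.12 at 6 h and 2.72 at 30 h, on the assumption that each is the genome average. The recovery of the pileup was tested on simulated data. No such test of the relative depth is reported here.

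The windows and the rule for named regions were chosen with earlier results of these data known. Per window, that rule took the 3 DMSO regions with the highest -log10 q, the strongest of each class of missing regions, and the 2 strongest new regions per time. The other members were described after their values were seen. A planned list of other EMT genes was not used, for want of mm9 positions. Sequences and gene order came from RefSeq (GRCm38.p6). Of the 5 genes 3 had a start in the sequence table.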

Additional observations from a re-analysis of the deposited data

How the results depend on the processing

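Counts of DMSO regions missing in the 5 windows are in the order 6 h, 30 h and both, and new regions in the order 6 h and 30 h. Limiting the counted regions to a score of 1000 left 5 of 21, 1 of 21 and 1 of 21 missing (23.8% at 6 h and 4.76% at 30 h, against 28.5% and 14.1% of all regions), and moved new regions to 0 of 10 (0%) at 6 h and 1 of 17 (5.88%) at 30 h. Windows 20 kb narrower on either side left 6, 2 and 2 of 15 missing and moved new regions at 6 h to 0 of 9 (0%). Leaving out the Zeb1 window, chosen after seeing the data, moved the shares missing at 30 h and at both times to 0%, 0 of 19. Both such regions lie there. The shares of all regions were 26.1% and 23.7%. With lists of equal length 3 of 18, 2 of 18 and 2 of 18 were missing (16.7% and 11.1%, against 23.1% and 19.9% of all), and 2 of 17 and 4 of 20 new. With every entry counted 19, 8 and 8 of 58 were missing (32.8% and 13.8%, against 35.6% and 20.6%). The gap between members and all regions was thus smaller at both times with the score of 1000, equal lengths or every entry counted. When an overlap had to cover 50% of a region, 8, 3 and 3 of 23 were missing, the added one being Zeb2-e, the only member to change class under the 3 other overlap rules. Windows 50 kb wider gave 10, 3 and 3 of 31. The summit rule, the 500 bp rule and a -log10 q of at least 5 changed none of these shares. With the median of all kept regions as the scale, the median pileup ratio was 0.919 at 6 h and 1.16 at 30 h, and with the nearest summit 0.786 and 1.14. Except where named as moved, the values stayed within the intervals of those reported; the cause of the other moves was not tested. No paired analysis was possible because the replicates of a group were pooled into 1 list before deposit, and no replicate could be left out for that reason. Depth limits the 6 h list most, at 63.0% of DMSO.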

Other observations

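The local background that the authors' caller set against each summit, recovered with the pileup, was uneven along the Snai1 window. In DMSO it was 17.8, 26.3, 20.8 and 14.5 fragments at Snai1-g, Snai1-h, Snai1-i and Snai1-j, and 7.23 to 12.4 at the other 6 Snai1 regions, against a lowest value of 3.37 in the list. At 6 h it was 9.50, 7.17 and 3.99 at Snai1-h, Snai1-i and Snai1-j, with a lowest value of 2.12, and at 30 h 17.9, 12.5 and 9.24, with a lowest value of 2.72. The 3 regions whose summits stood lowest against expectation at 6 h were thus among the 4 with the highest background in that window in DMSO. Background and pileup were recovered from the same entries, so they are not independent, and no link between them was tested. The highest background of any member was 35.1, at Zeb2-a, with 16.6 at 6 h and 26.0 at 30 h. The pileup ratio of Zeb2-a at 6 h was 0.649, not among the lowest.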
